A study of Mus musculus with 42 samples.

Results

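Carotid intima exposed to low flow was compared with the intima of high flow arteries 48 h after surgery, in mice given no further treatment. The comparison took every untreated 48 h pool labelled low or high flow, which gave 3 pools a side, or 6 of the 42 samples of the series. All 6 pools came from male C57BL/6J (Jax) mice a few weeks old. The left carotid was given low and disturbed flow by tying off all but 1 of its outflow branches, and the contralateral artery of the ligated mice served as the high flow side. Both sides therefore came from operated mice, and neither is an artery at its resting flow. The inner layer of each artery was flushed out with a lysis reagent, RNA of several flushes was joined in a pool, and polyadenylated RNA was amplified by a low-input kit and sequenced in 2 runs, of which the first is used here. A pool thus stands for several animals, and nothing ties a low flow pool to a high flow pool of the same mice. The p-values below measure the spread between pools. The pools are called a, b and c on each side, in the order of the letters in the deposited table.

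Endothelial cells line the intima and sense the drag of blood. Steady laminar flow keeps them quiescent, holds up the transcription factors KLF2 and KLF4 with nitric oxide synthase and thrombomodulin, and restrains inflammatory and growth genes. Low and disturbed flow withdraws that restraint: leukocytes adhere, endothelial cells divide and change shape, and matrix is rebuilt. Partial carotid ligation is used to follow these events in a vessel that was healthy at the outset. The question here was how far the RNA of other gene classes moved with flow, from signalling and metabolism to protein folding, the circadian clock, matrix and splicing factors. For this, 51 gene lists with 1265 distinct members were written down, of which 8 were not listed in the table under a symbol that matched and 1092 passed a filter on low counts and were tested.

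The first run gave each pool 4260059 to 6794904 expected counts. Scaling by TMM, which sets the trimmed mean log ratio of a pool to that of its neighbours at 0, put the median log2 fold change of all 11236 genes tested at −0.07. Library totals alone put it 0.62 lower. Counts given below as "on library totals" use that second scale. Of all genes tested, 46.2% changed at an adjusted p under 0.05, with 23.6% higher and 22.6% lower at low flow, and 58.2% had pools that did not overlap between the sides. A share of a list near these is no result about the list. Notch genes (39.1% called), tissue-type splicing regulators (41.2%) and fatty acid genes (44%) were among the lists under the share over all genes. On library totals, 1044 genes were higher and 3084 lower, in place of 2652 and 2543. Pool c of low flow stood apart: among the 100 most abundant genes, 96 were lower in it than in both other low flow pools, with a median log2 difference of −1.79 from pool a and −1.87 from pool b, while pools a and b differed by −0.05. Actb took 10.6%, 10.1% and 3.74% of the counts of low flow pools a, b and c and 0.699% to 1.1% of those of high flow pools. Levels below are TMM-scaled FPKM (fragments per kilobase of effective length at a common library size), fold changes are low over high flow on the log2 scale with their SE, and adjusted p-values are those of edgeR. The SE was worked back from the test, as the absolute log2 fold change over the square root of its F value.

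Markers of endothelium were present in every pool, as the label of a carotid intimal flush implies, and so were those of other cells. The 13 endothelial markers took 0.464%, 0.508% and 0.619% of counts in low flow pools and 0.943% to 1.12% in high flow pools. On the TMM scale 3 of them rose and 3 fell, at a median of 0.35 (log2), and their summed FPKM was 2169 to 4243 against 3053 to 3189. Macrophage markers took 0.203% to 0.328% against 0.00636% to 0.0138%, and neutrophil markers 0.0247% to 0.0487% against 0.000749% to 0.0024%. Both leukocyte lists were thus at more of the RNA on the low flow side, with 8 of 10 macrophage markers and 6 of 6 neutrophil markers higher. Smooth muscle markers took 0.233% to 0.431% against 0.0545% to 0.0645%, although of 7 tested 3 rose and 1 fell, with a median log2 fold change of −0.13. Fibroblast markers went the other way, with 0.00918% to 0.0475% against 0.14% to 0.171%. Of 8 tested 4 fell and 0 rose, and Pdgfra, Dcn, Lum and Col1a1 passed in neither direction. Mfap5 alone was at 684, 607 and 545 FPKM in high flow pools, where the list summed to 821, 889.8 and 808. White fat markers also took less at low flow, with 0.00053% to 0.00126% against 0.0092% to 0.0783%, as did brown fat markers, which reached 0.139% in high flow pool c. In such bulk samples, more cells of a type and more RNA per cell cannot be told apart.

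**Figure D1:**
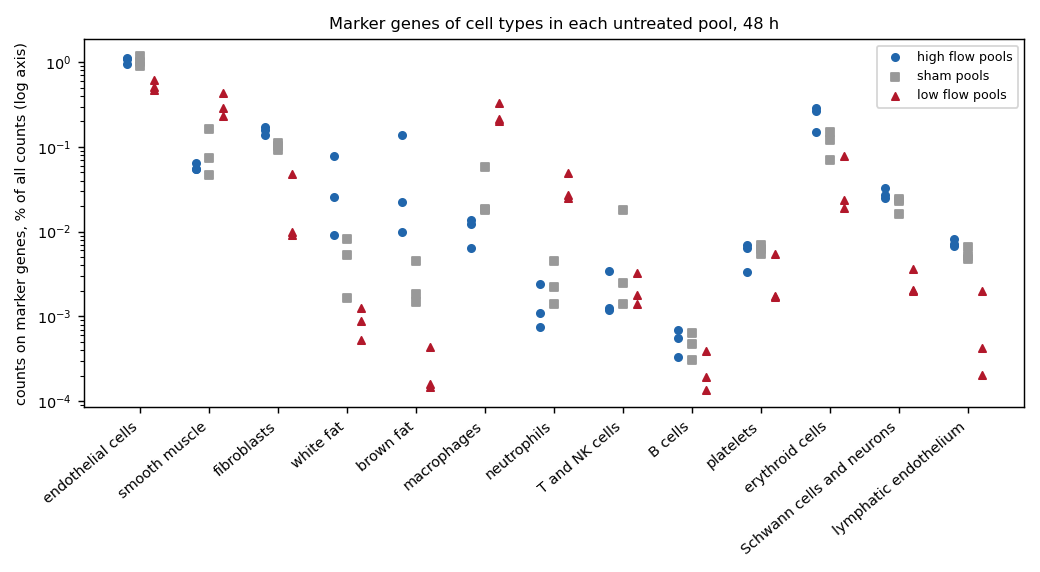
Summed share of counts of the marker genes of each cell type in each of the 6 pools and, for reference, in the 3 pools of sham-operated mice, on a log axis in percent of all expected counts. Macrophage and neutrophil markers lay higher in all low flow pools than in any high flow pool, and fat and fibroblast markers lay lower.

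The lists moved very unequally. All 43 mitosis genes and 37 of 38 replication genes were higher at low flow, while 59 of 71 respiratory chain subunits passed the test in neither direction. Genes of laminar flow and of the circadian clock were mostly lower, with 13 of 20 and 13 of 19 tested members down. The plot of shares by list sets these beside the shares over all genes tested.

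**Figure D2:**
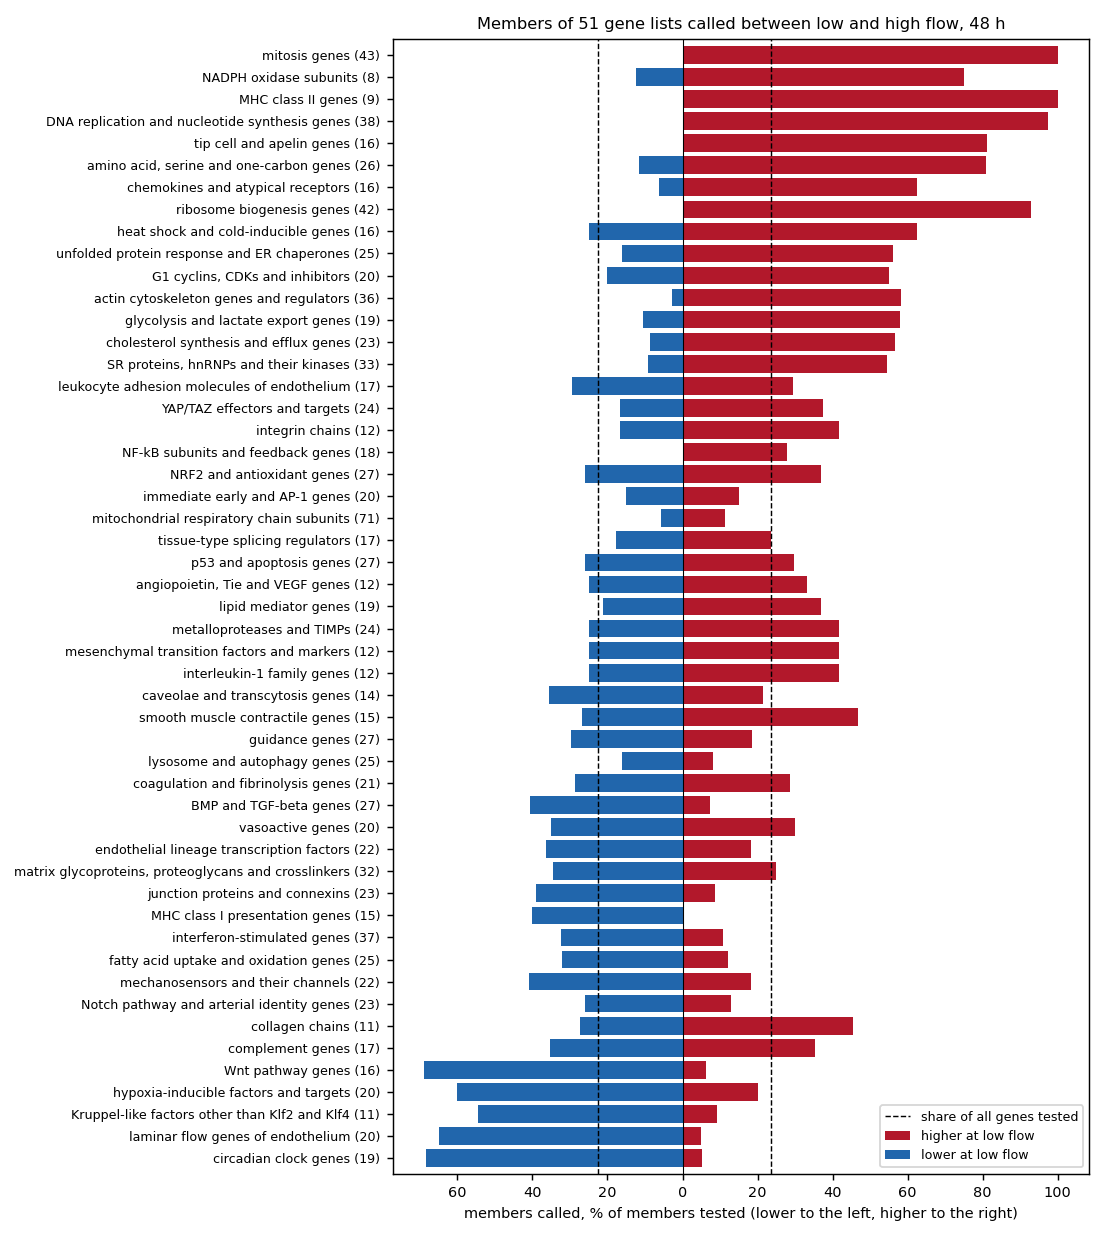
Percent of the tested members of each of the 51 gene lists that were higher (to the right) and lower (to the left) at low flow in untreated intima, with dashed lines at the shares over all genes tested, 23.6% and 22.6%. Mitosis and MHC class II genes stand at 100% higher, replication genes at 97.4%, and laminar flow genes at 65% lower.

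Genes that laminar flow maintains fell in most cases. Of 20 tested members 13 were lower and 1 higher (16 and 1 on library totals), with a median log2 fold change of −1.33. Klk10, a kallikrein-related protease of steady-flow endothelium (mm9 chr7:51036424-51040780), was at 9.62, 11.6 and 26.3 FPKM in the low flow pools and at 2047, 1599 and 1659 in the high flow pools (log2 fold change −6.78, SE 0.53, adjusted p = 4.93e-06, or −7.38 without low flow pool c). The highest of its low flow pools lay far below the lowest of its high flow pools. Nos3, the nitric oxide synthase of endothelium (chr5:23870628-23890292), was at 10.7, 16.5 and 15.3 against 35.2, 35.7 and 32.8 (−1.29, SE 0.21, adjusted p = 0.00056). Thbd, thrombomodulin, which turns thrombin to an anticoagulant role, was at 29.1, 27.5 and 73.2 against 109, 149 and 145 (−1.63, adjusted p = 0.00547, or −2.24 without low flow pool c). Ass1, which remakes arginine for nitric oxide synthesis, fell by 2.11 and Aqp1, a water channel, by 2.17. The exception was a connexin. Gja4, connexin 37 (chr4:126988665-126991283), stood at 2783, 3365 and 835 against 335, 251 and 214 (3.12, SE 0.55, adjusted p = 0.00106).

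Klf2 and Klf4 had relatives that moved with them. Of 11 other Krüppel-like factors tested, 6 fell and 1, Klf16, rose, a call lost without low flow pool a or high flow pool b or c (9 and 0 on library totals), with a median of −1.29. Klf9, a glucocorticoid-responsive member, was at 4.33, 3.33 and 9.46 against 37.5, 29.4 and 30.1 (−2.44, SE 0.33, adjusted p = 0.000166, or −3.05 without low flow pool c). Klf12 was at 0.417, 0.266 and 0.404 against 1.3, 1.26 and 1.72 (−1.91, SE 0.32, adjusted p = 0.000746), and Klf10, a TGF-beta target, fell by 1.74 with an SE of 0.23. Klf6 overlapped between the sides, at 101, 146 and 136 against 172, 158 and 134.

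Mechanosensors and their channels held 9 lower and 4 higher members of 22 (12 and 2 on library totals). Kcnn3, a calcium-activated potassium channel of endothelium-dependent hyperpolarization, was at 0.249, 0 and 0.208 against 1.05, 1.04 and 1.24 (−2.65, adjusted p = 0.00113). Ptprb, the phosphatase that restrains TIE2 and VE-cadherin signalling, was at 19.1, 11.5 and 29 against 81.4, 104 and 101 (−2.26, adjusted p = 0.000679). Both were lower in every low flow pool than in any high flow pool. Kdr, the main VEGF receptor, was at 1.14, 1.75 and 1.36 against 0.288, 0.284 and 0.159 (2.49, SE 0.35, adjusted p = 0.000255). Piezo1, listed as Fam38a, was at 3.03, 2.8 and 3.29 against 1.92, 3.05 and 2.4, and its difference did not pass the test (0.31, adjusted p = 0.252, with a sign that turned to −0.30 on library totals). Pecam1, a junctional part of the flow sensor, did not pass it either (−0.79, adjusted p = 0.171), although its pools did not overlap, and it passed in DESeq2 (−0.73) and on library totals (−1.51).

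**Figure D3:**
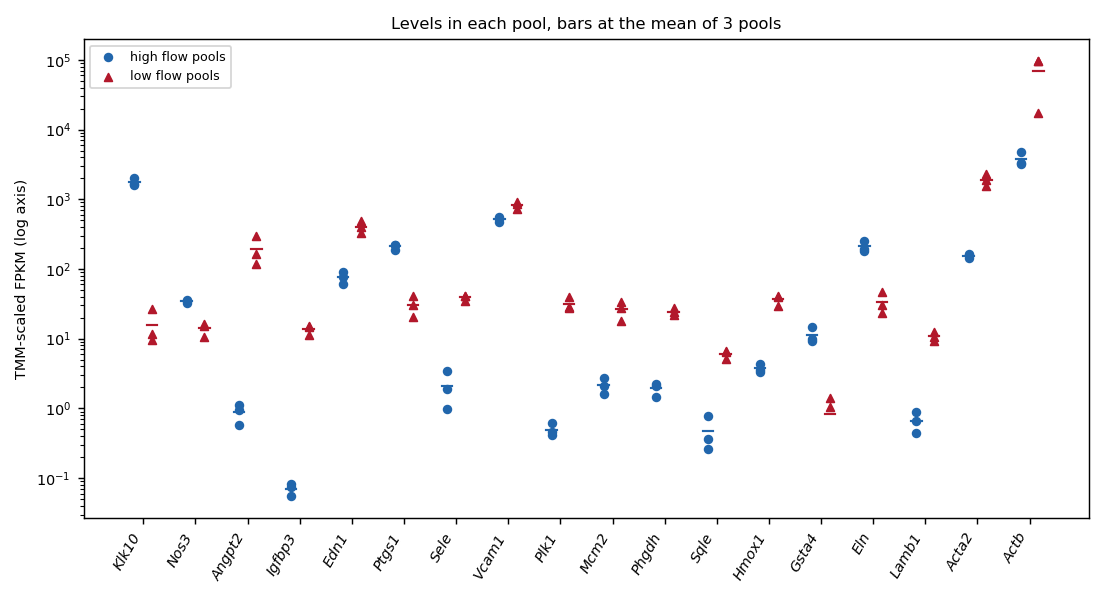
Level of selected genes in each of the 6 untreated pools, in TMM-scaled FPKM on a log axis, with low and high flow pools side by side and short bars at their means. Gsta4 in low flow pool b, at 0, cannot be drawn on this axis. Klk10 and Eln lie lower in all low flow pools, and Angpt2, Plk1 and Lamb1 lie higher.

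Among vessel-growth signals, the antagonist ligand of TIE2 and the genes of sprouting tips rose. Angpt2, which opposes angiopoietin 1 at the TIE2 receptor (chr8:18690263-18741562), was at 165, 299.8 and 118 FPKM in low flow pools and at 0.574, 1.13 and 0.94 in high flow pools (7.73, SE 0.47, adjusted p = 2e-06). Tek, the TIE2 receptor itself, went the other way, at 43.6, 29.2 and 31.6 against 64.3, 102 and 102 (−1.36, SE 0.28, adjusted p = 0.00247). Pgf, placental growth factor, was at 9.97, 15.6 and 26.2 against 1.47, 1.59 and 1.3 (3.57, SE 0.38, adjusted p = 3.68e-05), while Vegfa was at 0.517, 0.118 and 0.448 against 1.03, 0.757 and 1.44 (−1.41, adjusted p = 0.027). The Vegfa call was lost when low flow pool b or c or high flow pool a or c was left out (adjusted p from 0.0549 to 0.106). Of the 12 tested angiopoietin, Tie and VEGF genes, 4 rose and 3 fell, with a median of 0.09 that turned to −0.53 on library totals. Of the 3 lowered members 2 were left without high flow pool a or c or low flow pool b.

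Tip cell genes rose with no exception among those called: 13 of 16 were higher and 0 lower (10 and 1 on library totals), with a median of 2.28. Igfbp3, an insulin-like growth factor binding protein (chr11:7106089-7113926), was at 15.4, 14.9 and 11.4 FPKM in low flow pools, with 152, 92 and 185 counts, while each high flow pool held 1 count, too few for a fold. Esm1, endocan, was at 47.2, 77.8 and 49.9 against 0, 1.47 and 0 (6.60, adjusted p = 2.58e-05), with 0 counts in high flow pools a and c, so that its fold rests on pool b. Dll4, the Notch ligand that tip cells present to their neighbours, was at 11.8, 21.8 and 10.7 against 1.39, 1.71 and 1.12 (3.35, SE 0.32, adjusted p = 1.54e-05). In all of these, the lowest low flow pool lay above the highest high flow pool.

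Vasoactive genes moved in both directions, 6 higher and 7 lower of 20 (4 and 9 on library totals). Edn1, the precursor of the constrictor endothelin 1 (chr13:42396639-42403358), was at 330.3, 394 and 484 FPKM against 75.7, 91.2 and 60 (2.41, SE 0.30, adjusted p = 0.000107). The cyclooxygenases crossed. Ptgs1, the constitutive form (chr2:36085946-36107792), was at 30.1, 20.2 and 40.7 against 224, 190.4 and 221 (−2.80, SE 0.30, adjusted p = 4.14e-05), whereas Ptgs2, the inducible form, was at 5.65, 15.7 and 14.6 against 0.621, 1.19 and 1.1 (3.59, SE 0.40, adjusted p = 4.78e-05). Ace, angiotensin-converting enzyme, fell by 1.94. Ptgis, which makes prostacyclin, overlapped between the sides, at 175, 396 and 253 against 468, 315 and 326.

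Among coagulation and fibrinolysis genes 6 rose and 6 fell of 21 (4 and 9 on library totals). Plau, the urokinase-type plasminogen activator, rose from 0, 0.685 and 0.383 in high flow pools to 2.86, 5.74 and 3.72 (3.32, SE 0.57, adjusted p = 0.000891, or 4.23 without high flow pool b). Procr, the protein C receptor, was at 1070.4, 1638 and 551 against 301, 255 and 167 (2.17, adjusted p = 0.00243), opposite to thrombomodulin, with which it acts on protein C. Gas6, a vitamin K-dependent ligand of TAM receptors, fell by 2.47, and by 3.17 without low flow pool c.

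Leukocyte adhesion molecules did not move as a block. Of 17 tested, 5 were higher and 5 lower (2 and 7 on library totals, 2 higher without high flow pool b, and 8 higher in DESeq2), and their median of 0.55 turned to −0.07 on library totals. Sele, E-selectin (chr1:165978365-165987808), was at 35.2, 41.3 and 40.7 against 0.966, 3.4 and 1.89 (4.17, SE 0.34, adjusted p = 6.1e-06). Vcam1, at 913, 862 and 736 against 520.3, 559 and 475, did not pass the test (0.69, adjusted p = 0.152), nor did Icam1, at 155, 239 and 208 against 152, 139 and 121 (0.55, adjusted p = 0.111, and −0.07 on library totals). The pools of both did not overlap, and DESeq2 called both (0.74 and 0.59). Jam2, a junctional adhesion molecule of veins and lymphatics among other vessels (chr16:84774368-84826173), was at 15.2, 15.7 and 19.7 against 99.8, 93.5 and 93.8 (−2.49, SE 0.19, adjusted p = 4.16e-06), and Podxl, podocalyxin of the luminal surface, fell by 2.07.

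At the junctions 9 of 23 members fell and 2 rose (13 and 2 on library totals). In all 47.8% were called, near the 46.2% over all genes, with 39.1% lower beside 22.6%. Cdh5, VE-cadherin, overlapped between the sides, at 70.2, 58.6 and 46 against 34.7, 52.1 and 44.3 (0.41, adjusted p = 0.187, and −0.30 on library totals). Cldn5, the main claudin of tight endothelium, was at 50.4, 73.6 and 44.8 against 178, 173 and 135 (−1.53, SE 0.24, adjusted p = 0.000497), and Cgnl1, paracingulin, fell by 2.49. Connexin 43, Gja1, rose alongside connexin 37, from 0.839, 2.55 and 5.18 to 41.4, 59.8 and 32.7 (3.95, adjusted p = 8.58e-05, or 4.64 without high flow pool c). Among caveolar and transcytosis genes, Cav1 overlapped, at 3337, 1891 and 1373 against 1361, 1562 and 1603. Sdpr, which shapes caveolae, fell by 1.65 and Plvap, the diaphragm protein, by 1.17, while Scarb1, a lipoprotein receptor, rose by 2.06. The list held 5 lower and 3 higher of 14 (7 and 1 on library totals), and 6 higher without low flow pool c.

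In the list of Notch and arterial identity genes 6 members fell and 3 rose of 23 (12 and 2 on library totals). The ligands crossed: against the rise of Dll4, Dll1 was at 1.21, 1.92 and 1.46 FPKM in low flow pools and 11, 12.7 and 11.4 in high flow pools (−2.97, SE 0.22, adjusted p = 4.16e-06). Of the target genes, Hes1 fell by 1.92 (SE 0.32) and Hey2 by 1.25 (SE 0.18), while Hey1 did not pass the test (0.68, adjusted p = 0.172). Cxcl12, a chemokine of arterial endothelium, rose from 29.3, 46.1 and 30.5 to 385, 518 and 338 (3.55, SE 0.32, adjusted p = 1.23e-05).

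Of 27 BMP and TGF-beta genes 11 fell and 2 rose (13 and 1 on library totals). In all 48.1% were called, near the 46.2% over all genes, with 40.7% lower beside 22.6%. The members that fell included a receptor, a feedback SMAD and a latency protein. Bmpr2, the type II receptor, was at 1.52, 1.1 and 2.81 against 4.83, 4.37 and 3.76 (−1.16, SE 0.31, adjusted p = 0.0115), and Id1, a direct target of BMP SMADs, at 65, 77.9 and 55 against 241, 170.3 and 181 (−1.59, SE 0.22, adjusted p = 0.000207). Smad7, an inhibitory SMAD, and Ltbp4, which binds latent TGF-beta in elastic matrix, were also lower. The 2 that rose were Inhba, an activin subunit, whose call was lost without low flow pool b or high flow pool b or c (1.12 to 1.36, against 1.59, and 2.21 without high flow pool a), and Tgfbi, a secreted TGF-beta target, which was at 119, 245 and 105 against 1.43, 3.42 and 3.33 (5.82, SE 0.46, adjusted p = 5.21e-06). Bmp4 overlapped between the sides, at 633, 451 and 522 against 449, 479 and 345. Without low flow pool a 6 members fell, and without low flow pool c 4 rose.

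Of 16 tested Wnt pathway genes 11 fell and 1 rose (11 and 1 on library totals), with a median of −0.80. Without high flow pool a, b or c, or low flow pool a or b, the number that fell was 6, 4, 7, 5 and 4, without low flow pool c it was 11, and in DESeq2 it was 7. Dkk2, a secreted modulator of LRP6, was the member that rose, at 25.6, 37.8 and 20 against 5.85, 7.91 and 6.44 (2.03, SE 0.25, adjusted p = 9.56e-05). Among transcription factors of endothelial lineage 8 of 22 fell and 4 rose (9 and 2 on library totals, and 5 lower in DESeq2 or without high flow pool b or low flow pool b). Epas1, hypoxia-inducible factor 2 alpha (chr17:87153247-87232750), was at 31.7, 17.3 and 31.4 against 88.1, 151 and 154 (−2.29, SE 0.34, adjusted p = 0.000353), and Foxc1 at 3.63, 1.93 and 4.59 against 14, 14.2 and 12.9 (−1.96, SE 0.25, adjusted p = 0.000136). Ets1 rose, from 5.71, 11.5 and 12.4 to 36.2, 30.3 and 27.5 (1.66, SE 0.28, adjusted p = 0.000783), as did Bcl6b and Elk3. Erg overlapped between the sides, at 8.89, 8.96 and 12.6 against 16.2, 11.5 and 10.5.

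YAP and TAZ are co-activators that enter the nucleus when cells are stretched or sheared unevenly. Of 24 effectors and targets 9 rose and 4 fell (6 and 6 on library totals, where the median of 0.34 turned to −0.27). Targets moved both ways. Ctgf was at 46.3, 104 and 167 FPKM against 5.16, 9.85 and 4.63 (4, SE 0.47, adjusted p = 7.31e-05), and Ankrd1 at 11.3, 35.9 and 25.8 against 0.943, 1.01 and 0.416 (4.89, SE 0.47, adjusted p = 1.89e-05). Cyr61 was at 462, 2415 and 1173 against 277, 206 and 172 (2.63, adjusted p = 0.00355), or 1.92 without low flow pool b. Amotl2, also a target, was lower, at 4.72, 2.66 and 8.09 against 10.7, 10.4 and 9.29 (−0.92, SE 0.31, adjusted p = 0.0295), a call lost without low or high flow pool a or b. Ptpn14 and Rbms3 were lower too. Low flow pool b held the top value of Cyr61 and Ankrd1, and pool c that of Ctgf. Without low flow pool c 7 members fell.

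Immediate early genes, which respond within minutes to growth factors and stress, were mostly not called: 3 of 20 rose and 3 fell (6 and 1 without high flow pool a, 4 and 1 without low flow pool a), and the median of 0.26 turned to −0.22 on library totals (2 and 4). Fos was at 8.12, 16.6 and 34.4 against 12.4, 8.31 and 1.47, and its groups overlapped. Myc, the growth regulator, was at 29.1, 68.5 and 53.8 against 4.41, 6.07 and 4.49 (3.32, SE 0.31, adjusted p = 1.52e-05). Dusp1, a phosphatase that ends MAP kinase signals, fell by 1.76. NF-kB genes moved little. Of 18, 5 rose and 0 fell (0 and 1 on library totals), and their median of 0.28 turned to −0.36 there. Nfkb2 was at 4.42, 3.45 and 4.87 against 1.71, 2.51 and 1.16 (1.24, SE 0.31, adjusted p = 0.00741), a call lost on library totals (0.65). Rela was at 22, 26 and 29 against 36.3, 33.3 and 29.6, and Nfkbia at 132, 217 and 163 against 337, 229.8 and 186, and neither passed the test (adjusted p = 0.127 and 0.143).

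Lists of inflammatory genes moved in different directions, beside the macrophage and neutrophil markers whose shares of counts are given above, and the part of those cells in each list was not tested. Il1b was at 108, 142 and 67.4 FPKM against 0.323, 0.849 and 0.855 (7.19, adjusted p = 1.52e-06, or 7.39 without high flow pool b), and its antagonist Il1rn at 17.9, 24.9 and 13.8 against 0.0844, 0.222 and 0.596 (5.91, adjusted p = 3.17e-06, or 6.72 without high flow pool c). The receptor Il1r1 was at 1.95, 1.44 and 1.94 against 2.05, 2.21 and 2.61 and did not pass the test (−0.34, adjusted p = 0.259). Casp1, which cleaves pro-interleukin-1 beta, fell, at 13.9, 10.6 and 17.5 against 41.8, 39.9 and 36.7 (−1.47, SE 0.20, adjusted p = 0.000206). The family thus held 5 raised and 3 lowered of 12, with a median of −0.09 (2 and 3 on library totals).

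Chemokines rose in 10 of 16 and fell in 1 (7 and 2 on library totals), with a median of 1.74. Ccl2, which attracts monocytes, was at 26.4, 65.6 and 24.7 against 0, 3.79 and 0.509 (4.47, adjusted p = 0.000401, or 6.94 without high flow pool b). Cx3cl1, a membrane-bound chemokine of endothelium, was at 7.38, 7.79 and 9.51 against 2.36, 2.76 and 2.47 (1.70, SE 0.21, adjusted p = 8.88e-05, with 1.12 and no call on library totals). The one that fell was Cxcr7, a scavenging receptor for CXCL12, at 21.9, 12.6 and 46.4 against 274, 281 and 233 (−3.27, SE 0.43, adjusted p = 0.000156, or −3.90 without low flow pool c), so that ligand and scavenger moved in opposite directions.

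Of 37 interferon-stimulated genes 12 fell and 4 rose (18 and 3 on library totals, and 18 lower without low flow pool c). In all 43.2% were called, near the 46.2% over all genes, with 32.4% lower beside 22.6%. Ifit1 was at 1.87, 2.38 and 4.87 against 13.1, 14.8 and 13.9 (−2.12, or −2.72 without low flow pool c, adjusted p = 0.000255), and Ifit3 at 11.9, 10.2 and 42.1 against 87.8, 82.5 and 91.4 (−1.99, or −2.96 without that pool, adjusted p = 0.00431). In both, pool c was the low flow pool nearest to high flow. Ifitm1 and Oas2 were among those that rose. Ifitm1 was at 61.2, 100.4 and 34 against 2.15, 2.12 and 0.95 (5.14, SE 0.48, adjusted p = 1.42e-05), and Oas2 at 0.877, 0.998 and 0.456 against 0.0514, 0.0675 and 0, with 3 counts in all on the high flow side, too few for a fold.

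Antigen presentation genes moved differently in the 2 MHC classes. All 9 tested MHC class II genes rose (8 and 0 on library totals), and 2 more were too low to test. Cd74, the invariant chain, was at 6890.5, 7739 and 2229 against 148, 173 and 313 (4.73, SE 0.66, adjusted p = 0.00021), and Ciita, the activator of the class, at 1.44, 2.07 and 1.66 against 0.305, 0.251 and 0.505 (2.27, SE 0.35, adjusted p = 0.000403). Of 15 class I presentation genes 0 rose and 6 fell (0 and 12 on library totals), among them the immunoproteasome subunits Psmb8, Psmb9 and Psmb10. Psmb9 was at 22.9, 27.5 and 39.7 against 88.3, 56.3 and 72.8 (−1.25, SE 0.25, adjusted p = 0.00202). H2-T23, a non-classical class I molecule, fell by 1.60, and B2m overlapped between the sides.

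Complement genes moved both ways. Of 17, 6 rose and 6 fell (4 and 8 on library totals). C5ar1, the anaphylatoxin receptor of myeloid cells, was at 36.1, 60.1 and 31.9 against 1.47, 1.45 and 1.87 (4.73, SE 0.30, adjusted p = 2.11e-06), and properdin, Cfp, rose by 4.01. Cd55, which protects host cells from complement, was at 6.45, 5.61 and 7.59 against 14.3, 14.4 and 15.8 (−1.16, SE 0.19, adjusted p = 0.000533), and Serping1, the C1 inhibitor, at 10.4, 7.75 and 39.3 against 70.4, 80.0 and 90.7 (−2.02, or −3.12 without low flow pool c). Subunits of the phagocyte NADPH oxidase, which makes superoxide, rose in 6 of 8, and Rac1 fell (6 and 1 on library totals, and 0 lower without high flow pool c or low flow pool b). Cybb, its catalytic chain, was at 19.8, 16.7 and 20.1 against 0.58, 1.01 and 0.878 (4.49, SE 0.23, adjusted p = 1.2e-06). Every marker of macrophages and neutrophils that changed did so in this direction as well.

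Genes of cell division rose nearly throughout. All 43 mitosis genes and 37 of 38 genes of DNA replication and nucleotide synthesis rose. Leaving out any 1 pool left all 43 and at least 36 raised. On library totals 42 and 29 did. Medians were 4.52 and 2.79. Promoters of mitosis genes often carry CHR elements (TTTGAA) and CCAAT boxes, on which the DREAM and MuvB complexes and NF-Y are known to act. They are printed here for 3 named members because the list moved as a block, from RefSeq on GRCm38.p6, from 250 bases before to 50 after the start, 5′ to 3′ on the gene's strand, with both motifs in capitals on either strand (ATTGG being CCAAT on the other strand, and TTCAAA being TTTGAA). Cdk1 lies at chr10:69352863-69353162, Mki67 at chr7:135716330-135716629 and Plk1 at chr7:122159185-122159484 on that build, the first 2 on the minus strand.
Cdk1: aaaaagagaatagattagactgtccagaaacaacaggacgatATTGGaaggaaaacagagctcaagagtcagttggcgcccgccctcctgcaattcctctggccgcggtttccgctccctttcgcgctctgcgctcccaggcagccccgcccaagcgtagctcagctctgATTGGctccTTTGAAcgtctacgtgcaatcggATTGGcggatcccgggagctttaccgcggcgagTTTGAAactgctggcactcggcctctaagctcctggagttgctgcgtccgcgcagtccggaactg
Mki67: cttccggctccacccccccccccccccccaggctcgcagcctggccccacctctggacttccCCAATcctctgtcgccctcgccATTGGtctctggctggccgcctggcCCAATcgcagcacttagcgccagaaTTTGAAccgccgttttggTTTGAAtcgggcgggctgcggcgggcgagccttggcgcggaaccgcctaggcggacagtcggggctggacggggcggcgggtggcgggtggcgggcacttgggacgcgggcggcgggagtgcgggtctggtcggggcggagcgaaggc
Plk1: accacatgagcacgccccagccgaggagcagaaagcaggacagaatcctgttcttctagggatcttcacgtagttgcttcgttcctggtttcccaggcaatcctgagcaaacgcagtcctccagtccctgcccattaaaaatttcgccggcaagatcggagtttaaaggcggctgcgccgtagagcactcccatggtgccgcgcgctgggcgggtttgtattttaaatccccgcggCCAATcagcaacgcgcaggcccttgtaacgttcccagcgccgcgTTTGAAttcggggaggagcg
Of the 36 members with a window in the tables, 28 (77.8%) held TTTGAA in a window against 20.2% of all 27025 genes with one, 27 (75.0%) held CCAAT against 41.1%, and 23 (63.9%) held both in the same window against 7.97%. TTTGAA and ATTGG can share a letter, as they do in the window of Cdca8. A match is a description of the sequence, and binding was not measured.

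The RNA of those 3 genes rose steeply. Plk1, the polo-like kinase of mitotic entry (mm9 chr7:129302951-129313389), was at 27.5, 39.3 and 28.9 FPKM against 0.464, 0.61 and 0.409 (5.94, SE 0.27, adjusted p = 1.2e-06). Cdk1, the mitotic cyclin-dependent kinase (mm9 chr10:68799383-68815686), was at 95.2, 70.9 and 50.8 against 1.27, 2.68 and 0.993 (5.40, SE 0.39, adjusted p = 3.43e-06). Mki67, the proliferation antigen (mm9 chr7:142881471-142908062), was at 8.28, 4.56 and 5.86 against 0.0385, 0.392 and 0.153 (4.87, adjusted p = 1.64e-05, or 5.94 without high flow pool b). High flow pool b held the highest level of all 3 on its side. In replication, the helicase subunit Mcm2 was at 27.3, 33.8 and 18.1 against 2.07, 2.76 and 1.62 (3.59, SE 0.28, adjusted p = 5.32e-06), and Rrm2, of ribonucleotide reductase, at 178, 190.5 and 68.5 against 2.06, 6.05 and 3.4 (5.21, SE 0.49, adjusted p = 1.54e-05). As a share of all counts, mitosis genes took 0.248%, 0.132% and 0.316% in low flow pools a, b and c and 0.0115% to 0.0213% in high flow pools. Pool c thus had the largest share of its side, though its most abundant transcripts were lower.

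Upstream of these, 11 of 20 G1 regulators rose and 4 fell (6 and 5 on library totals). Ccnd1, cyclin D1, was at 31.1, 39.5 and 26.3 against 15.4, 17.8 and 12.2 (1.09, SE 0.22, adjusted p = 0.00236, with 0.39 and no call on library totals). The inhibitor Cdkn1a overlapped, at 11.9, 21.5 and 18.2 against 23.6, 19.2 and 14.9, while Cdkn1c, which encodes p57, was at 1.45, 0.843 and 2.57 against 10.3, 8.56 and 7.37 (−2.28, adjusted p = 0.000316). In the p53 and apoptosis list 8 rose and 7 fell of 27, with a median of 0.11 that turned to −0.43 on library totals (4 and 7). Without high flow pool b or c, or low flow pool a or b, 3, 2, 4 and 3 fell. Trp53 was at 440.1, 582 and 234 against 94, 72.5 and 54.2 (2.51, SE 0.37, adjusted p = 0.00034), and Pmaip1, which encodes the BH3 protein NOXA, at 8.53, 7.54 and 8.27 against 0.837, 0.5 and 0.336 (3.88, SE 0.31, adjusted p = 5.32e-06). The death receptor Fas fell, at 162, 144 and 235 against 530.2, 429 and 368 (−1.29, SE 0.29, adjusted p = 0.0041).

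Ribosome biogenesis was nearly as uniform as division. Of 42 tested genes 39 rose and 0 fell, with a median of 1.61, and on library totals 15 rose and 0 fell. Ncl, nucleolin, was at 100.4, 124 and 80.4 FPKM against 27.5, 29 and 22.2 (1.95, SE 0.29, adjusted p = 0.000326). Nhp2, of the pseudouridine-guiding particles, was at 253, 303 and 101 against 23.8, 25.8 and 28.4 (3.07, SE 0.36, adjusted p = 7.32e-05). Fbl, fibrillarin, methylates ribosomal RNA and rose by 0.93 (SE 0.24, adjusted p = 0.00952), a call that was lost on library totals (0.35).

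Metabolic genes divided by pathway. Serine, one-carbon and amino acid genes rose in 21 of 26 and fell in 3 (14 and 3 on library totals), with a median of 2.10. Phgdh, the first enzyme of serine synthesis (chr3:98117093-98143913), was at 22, 27.5 and 24 FPKM against 2.1, 1.45 and 2.25 (3.67, SE 0.23, adjusted p = 2.11e-06). Psat1, the next enzyme, was at 52.2, 43 and 34.9 against 0.77, 2.34 and 1.53 (4.74, SE 0.32, adjusted p = 2.36e-06), and the glutamine carrier Slc38a1 at 3.43, 4.54 and 3.65 against 0.105, 0.173 and 0.139 (4.72, SE 0.28, adjusted p = 1.93e-06). Low flow pool c kept near the other low flow pools in these. Atf4, the activator of many of these genes, rose by 0.99 (SE 0.19, adjusted p = 0.00167, with 0.37 and no call on library totals). Glul, glutamine synthetase, was among the 3 that fell, at 14.9, 13.4 and 18.6 against 45.2, 45.1 and 56.6 (−1.64, SE 0.20, adjusted p = 0.0001).

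Cholesterol synthesis genes rose in 13 of 23 and fell in 2 (3 and 4 on library totals). Sqle, squalene epoxidase (chr15:59146632-59162747), was at 6.53, 6.55 and 5.15 against 0.367, 0.772 and 0.259 (3.60, SE 0.36, adjusted p = 2.43e-05, or 4.23 without high flow pool b). Abca1, which exports cholesterol, was at 0.852, 0.587 and 1.3 against 2.17, 2.5 and 2.7 (−1.36, SE 0.26, adjusted p = 0.00186).

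Glycolysis genes rose in 11 of 19 and fell in 2 (5 and 3 on library totals), with a median of 0.76. Without high flow pool c or low flow pool b 7 rose, and without either, or low flow pool a, 0 fell. Ldha, lactate dehydrogenase A, was at 1364, 1693 and 567 against 351, 325 and 417 (1.73, SE 0.43, adjusted p = 0.00781). The glucose carrier Slc2a1 was at 21.7, 32.2 and 25.9 against 16, 13.1 and 15.7 (0.83, adjusted p = 0.00528, with 0.19 and no call on library totals). Genes of hypoxia outside glycolysis leaned the other way, with 12 of 20 lower and 4 higher (12 and 2 on library totals, and 2 higher without high flow pool a or low flow pool b or c). Hif1a was at 9.03, 9 and 8.04 against 4.8, 6.94 and 8.36 and did not pass the test (0.37, adjusted p = 0.176, and −0.29 on library totals). Bnip3, a mitophagy receptor, was at 26, 20 and 43.5 against 102, 96.6 and 118 (−1.81, SE 0.28, adjusted p = 0.000403).

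The 71 respiratory chain subunits hardly moved in untreated pools: 8 rose and 4 fell, 16.9% in all, well under the 46.2% over all genes, and the median of 0.18 turned to −0.59 on library totals (0 and 11). This count turned on low flow pool c: without it 30 rose and 2 fell, and without any other pool 1 to 3 rose and 2 to 4 fell. Cox4i1 was at 2117, 2025 and 774 against 1177, 1002 and 1193. Ndufv3, of complex I, was at 54.3, 57.1 and 52.1 against 99.5, 80.7 and 113 (−0.84, SE 0.18, adjusted p = 0.00357). As a share of counts, the list took 1.2% to 1.24% in low flow pools and 1.32% to 1.7% in high flow pools.

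Fatty acid uptake and oxidation genes fell in 8 of 25 and rose in 3 (15 and 1 on library totals), with 5 lower without high flow pool c or low flow pool a or b and 12 without high flow pool a, beside fat cell markers that also fell in every case tested, 5 of 5 of white and 7 of 7 of brown fat, and whose part in this list was not tested. Pparg, the adipocyte and lipid regulator, was at 0.408, 0.433 and 0.33 against 1, 3.96 and 14.5 (−4.06, adjusted p = 0.00549, or −2.74 without high flow pool c). Fabp4, a fatty acid binding protein of both fat cells and capillary endothelium, was at 109, 227 and 45.4 against 329, 687 and 2368 (−3.17, adjusted p = 0.00526, or −2.03 without that pool and −3.86 without low flow pool b). High flow pool c, which held the largest share of fat markers, held the top value of both. Angptl4, an inhibitor of lipoprotein lipase, rose from 0.543, 1.14 and 4.89 to 43.4, 134 and 35.9 (5.01, adjusted p = 0.000229, between 4.19 without low flow pool b and 6.28 without high flow pool c).

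Protein folding genes of the endoplasmic reticulum rose in 14 of 25 and fell in 4 (7 and 4 on library totals). Hspa5, the chaperone BiP, was at 1866, 2355 and 787 FPKM against 311, 336 and 316 (2.38, SE 0.49, adjusted p = 0.00268), and Manf, a secreted chaperone partner, at 236, 313 and 102 against 53.7, 45.5 and 36.5 (2.26, SE 0.38, adjusted p = 0.000768). Among the 4 that fell were the co-chaperone Dnajb9, by 0.99 (SE 0.18), and Ddit3, the stress factor CHOP, at 9.61, 5.61 and 13.2 against 33.1, 29.4 and 26.9 (−1.57, SE 0.27, adjusted p = 0.000899).

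Heat shock and cold-inducible genes rose in 10 of 16 and fell in 4 (6 and 4 on library totals, and 2 lower without high flow pool b or low flow pool a or b). Serpinh1, the collagen chaperone HSP47, was at 3264, 5546 and 1009.8 against 264, 229 and 157 (3.91, adjusted p = 0.000927, or 3.31 without low flow pool b). The small heat shock gene Cryab was at 4.03, 4.63 and 11.4 against 105, 77.2 and 85.5 (−3.63, adjusted p = 1.42e-05, or −4.36 without low flow pool c). The cold-inducible RNA-binding proteins parted: Rbm3 rose, at 1010.0, 1024 and 459 against 287, 237 and 214 (1.75, SE 0.36, adjusted p = 0.00253), and Cirbp fell, at 19.1, 23 and 33.9 against 89.8, 54.7 and 54 (−1.37, SE 0.27, adjusted p = 0.00203).

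Antioxidant genes, many of them under NRF2, rose in 10 of 27 and fell in 7 (5 and 9 on library totals), and their median of 0.27 turned to −0.52 there. Hmox1, heme oxygenase 1 (chr8:77617490-77624495), was at 29.4, 40.2 and 41.3 FPKM against 3.34, 3.6 and 4.36 (3.29, SE 0.22, adjusted p = 2.31e-06). Nqo1, often read as an NRF2 target beside it, fell, at 5.29, 4.48 and 5.01 against 20.9, 17 and 16.5 (−1.86, SE 0.21, adjusted p = 5.29e-05), and Gsta4, a glutathione transferase (chr9:78039773-78057155), was at 1.43, 0 and 1.04 against 9.38, 10.0 and 14.5 (−3.54, SE 0.49, adjusted p = 0.000197). The cystine carrier Slc7a11 rose by 3.61 (SE 0.40, adjusted p = 4.41e-05). Nfe2l2, the NRF2 gene itself, was at 81.6, 74.4 and 80.0 against 105, 109 and 106 and did not pass the test (−0.44, adjusted p = 0.0965). Targets of NRF2 thus moved both ways.

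Circadian genes fell in 13 of 19, with a median of −1.40, and 1 rose, Csnk1d, whose call was lost without high flow pool c or low flow pool b and whose sign turned on library totals, to −0.08 (12 and 0 called there). Their products form a feedback loop in which BMAL1 and CLOCK bind E-boxes (CACGTG) and drive Per and Cry genes, which repress them. Per1 (mm9 chr11:68908719-68923462) was at 0.466, 0.99 and 1.69 FPKM against 4.16, 3.29 and 2.74 (−1.61, SE 0.38, adjusted p = 0.00542, or −2.29 without low flow pool c), Per2 fell by 2.34 (3.28 without low flow pool c) and Rora by 2.21 (3.19 without that pool). The output factors Tef and Hlf were lower too. Arntl, which encodes BMAL1, was at 1.86, 1.48 and 1.79 against 1.18, 2.87 and 0.733 and did not pass the test (0.07, adjusted p = 0.905), nor did Nr1d1, at 6.1, 9.11 and 13.5 against 15.3, 8.5 and 12.3. Time of day at collection was not among the labels, so its part was not tested. Of 17 clock members with a promoter window, 5 (29.4%) held CACGTG, which reads the same on both strands, against 8.09% of all genes with a window. Of the 2 Per1 windows the first holds it and the second does not. The first is shown, chr11:69098699-69098998 on the plus strand of GRCm38.p6 in RefSeq, since Per1 is the member whose E-box is best known, with the motif in capitals.
Per1: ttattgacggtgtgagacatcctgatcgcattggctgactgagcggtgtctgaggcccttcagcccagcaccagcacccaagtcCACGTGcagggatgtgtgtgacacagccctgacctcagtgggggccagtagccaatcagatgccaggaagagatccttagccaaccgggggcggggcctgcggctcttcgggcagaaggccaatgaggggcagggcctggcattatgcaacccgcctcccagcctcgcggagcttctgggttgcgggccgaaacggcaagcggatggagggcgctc

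Matrix genes moved in both directions. Of 32 glycoproteins, proteoglycans and crosslinkers 8 rose and 11 fell (5 and 15 on library totals). Eln, elastin (chr5:135179651-135223111), was at 23.4, 30.2 and 46.7 FPKM against 256, 193 and 183 (−2.65, SE 0.33, adjusted p = 0.000105), and Mfap5, of elastic microfibrils, at 61.4, 63.9 and 100.5 against 684, 607 and 545 (−3.02, SE 0.30, adjusted p = 2.4e-05). Mfap5 is also on the list of fibroblast markers, of which 4 of 8 were lower and 0 higher, and the part of fibroblasts was not tested. Lamb1, a laminin chain of provisional basement membrane (chr12:31950099-32014509), was at 12.4, 10.6 and 9.37 against 0.441, 0.892 and 0.658 (3.98, SE 0.26, adjusted p = 2.11e-06). Thbs1, thrombospondin 1, was at 389, 460.5 and 317 against 34.3, 65.3 and 34.1 (3.12, SE 0.41, adjusted p = 0.000153). Fibronectin, Fn1, rose by 1.01 (SE 0.27, adjusted p = 0.0111, with 0.40 and no call on library totals).

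Of 11 tested collagen chains 5 rose and 3 fell (3 and 5 on library totals, and 6 lower without low flow pool c), while the median of all 11 was −0.66, so the counts and the median differ in sign. Col8a1, a short-chain collagen of injured arteries, was at 62.1, 71.6 and 38 against 11.6, 13.5 and 11.3 (2.23, SE 0.27, adjusted p = 7.7e-05), whereas the fibrillar chain Col1a2 was at 6.94, 6.53 and 16 against 22.4, 30.2 and 37.9 (−1.60, SE 0.34, adjusted p = 0.00345). Of 12 integrin chains 5 rose and 2 fell, with a median of 0.31 that turned to −0.26 on library totals (3 and 4). Itga5, the fibronectin receptor chain, was at 108, 181 and 107 against 25.4, 48.4 and 36.2 (1.85, SE 0.33, adjusted p = 0.00107), and Itga9 fell by 2.64 (SE 0.34, adjusted p = 0.000128), and fell by 3.30 without low flow pool c.

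Proteases and their inhibitors moved apart within the family. Of 24 metalloproteases and TIMPs 10 rose and 6 fell, with a median of 0.00 (8 and 9 on library totals, at −0.58). Mmp14, the membrane-bound protease, was at 19.7, 17.7 and 16.5 against 4.13, 4.2 and 3.92 (2.13, SE 0.18, adjusted p = 7.23e-06), and Adamts4 rose by 5.90, or 5.42 without low flow pool b. Of the inhibitors, Timp1 rose, at 94, 155 and 86.4 against 19.5, 29.9 and 26.1 (2.13, SE 0.26, adjusted p = 8.78e-05), while Timp2, Timp3 and Timp4 fell, as did Reck, a membrane inhibitor, by 2.08 (SE 0.31). Timp4 fell by 3.08, and fell by 4.38 without low flow pool c.

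Contractile genes of smooth muscle moved both ways, beside smooth muscle markers that took a larger share of counts at low flow but of which 3 rose and 1 fell, and whose part was not tested. Of 15 tested 7 rose and 4 fell (3 and 5 on library totals), with a median of −0.12. Acta2, smooth muscle alpha actin (chr19:34315580-34329826), was at 1883, 2329 and 1534 FPKM against 161, 163 and 144 (3.62, SE 0.40, adjusted p = 4.44e-05), and Tagln, SM22, at 390.1, 608 and 612 against 95.5, 110.1 and 82.1 (2.48, SE 0.30, adjusted p = 7.8e-05). Myh11, the smooth muscle myosin chain, was at 0.252, 0.172 and 0.896 against 0.739, 1.03 and 1.54 and did not pass the test (−1.13, adjusted p = 0.086). Mustn1 fell by 3.14, and by 3.98 without low flow pool c. A CArG box, CC then 6 of A or T then GG, to which serum response factor binds, was in the window of 1 of 15 members (6.67%), Myl9, against 1.81% of all genes with a window.

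Cytoskeletal genes rose broadly: 21 of 36 genes of the actin cytoskeleton and its regulators were higher and 1, Lima1, lower (13 and 3 on library totals), with a median of 0.84. Leaving out high flow pool a, b or c left 11, 13 and 12 raised. Tubb6, a beta tubulin, was at 559.8, 1221 and 367 against 6.68, 20.7 and 10.3 (5.82, adjusted p = 3.01e-05, or 5.20 without low flow pool b). Actb was at 95874, 95309.9 and 17246 against 3259, 4816 and 3282 (4.20, SE 1.30, adjusted p = 0.0218). This call was lost without any 1 of the high flow pools (adjusted p from 0.148 to 0.185), and Actb, like Gapdh, Npm1, Hspa8 and Hnrnpa1, is known to have near-identical copies among which reads could be divided, so these estimates are uncertain. Among mesenchymal factors and markers 5 of 12 rose and 3 fell, with a median of −0.03 (4 and 4 on library totals). Snai1 was at 2.26, 5.66 and 3.52 against 0.265, 0.261 and 0 (4.23, SE 0.62, adjusted p = 0.000287), and Snai2, its close relative, at 4.36, 2.19 and 4.01 against 9.1, 6.93 and 8.13 (−1.14, SE 0.27, adjusted p = 0.00598). Twist1 fell by 2.18, or 3.03 without low flow pool c, so the transition factors moved in both directions.

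Guidance genes, which steer vessels as well as axons, fell in 8 and rose in 5 of 27 (10 and 1 on library totals, and 3 higher without high flow pool c or low flow pool a or b). The 48.1% called was near the 46.2% over all genes. Ntn1, netrin 1, a brake on leukocyte migration, was at 3, 1.72 and 4.52 against 18.3, 18.1 and 13.5 (−2.38, SE 0.29, adjusted p = 9.25e-05), and Sema3f at 2.87, 3.2 and 3.95 against 11.9, 13.8 and 12.4 (−1.91, SE 0.20, adjusted p = 2.7e-05). Sema4a, a semaphorin of immune cells, rose by 4.47 (SE 0.58). Of 19 lipid mediator genes 7 rose and 4 fell, with a median of 0.04 that turned to −0.44 on library totals (2 and 6). Ppap2b, which degrades lysophosphatidic acid, was at 16.4, 45.4 and 32.2 against 83.6, 68 and 71.1 (−1.25, SE 0.32, adjusted p = 0.00913), and S1pr1 did not pass the test (0.63, adjusted p = 0.0957, and −0.08 on library totals). Lysosome and autophagy genes were called in 6 of 25, with 2 higher and 4 lower (0 and 9 on library totals, and 7 lower without low flow pool c), among them Lamp1, which fell by 1.15 (SE 0.22, adjusted p = 0.0018).

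Splicing regulators were measured because the series asks how splicing changes with flow. Rbfox2, the factor the series is named for, was at 4.44, 3.09 and 3.43 FPKM in low flow pools and 2.73, 2.58 and 2.71 in high flow pools, and did not pass the test (0.46, adjusted p = 0.0782, and −0.20 on library totals). Of 17 tissue-type regulators 4 rose and 3 fell, with a median of 0.16 that turned to −0.50 on library totals (1 and 3). Ptbp1, the polypyrimidine tract protein (chr10:79317172-79327516), was at 47.9, 71.3 and 55.1 against 24.6, 23.9 and 19.2 (1.36, SE 0.22, adjusted p = 0.000507, with 0.71 and no call on library totals), and Mbnl3 at 2.54, 1.78 and 1.82 against 0.179, 0.221 and 0.138 (3.47, SE 0.30, adjusted p = 9.06e-06). SR proteins, hnRNPs and their kinases rose in 18 of 33 and fell in 3 (4 and 4 on library totals). The risers were RNA-binding proteins, apart from the kinase Srpk1, and the 3 that fell were all kinases, Clk1, Clk4 and Srpk2, with the call of Clk1 lost without low flow pool b. Srpk2 was at 5.22, 4.84 and 5.52 against 13.3, 9.94 and 11.6 (−1.15, SE 0.18, adjusted p = 0.000413).

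**Figure D4:**
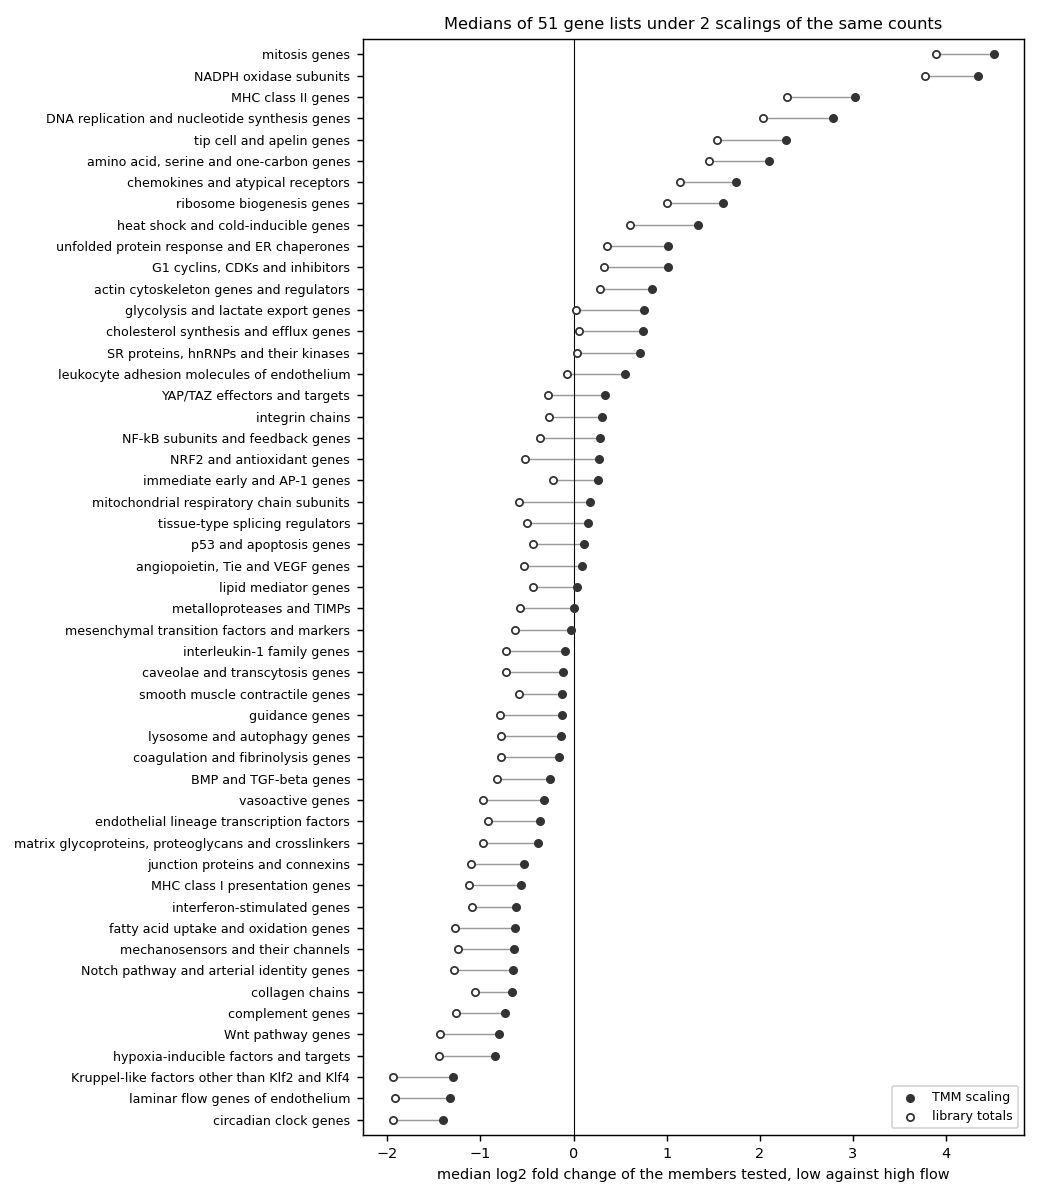
Median log2 fold change, low over high flow, of the tested members of each of the 51 gene lists (horizontal axis), 1 list a line, with filled circles under TMM scaling, open circles on library totals and a vertical line at 0. The open circles lie to the left of the filled ones in each list, and lists whose pair spans the vertical line change the sign of their median, such as respiratory chain subunits at 0.18 and −0.59.

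The same contrast was made in 8 other pools at 48 h, from C57BL/6J (Jax) mice given a non-specific IgG or PBS liposomes, 4 low flow and 4 high flow, fitted with the treatment as a term. There, low and high flow libraries were sequenced in different runs, so flow and run cannot be told apart. Of 12730 genes tested 58.3% changed, 31.5% higher and 26.7% lower. Laminar flow genes again were mostly lower, 15 of 20 with 1 higher, and tip cell genes higher, 13 of 19 with 1 lower. Replication genes rose in 37 of 38 (median 2.59), ribosome biogenesis genes in 39 of 42 (1.70) and amino acid genes in 22 of 28 (2.07), and clock genes fell in 12 of 20 (−1.32). Angpt2 had a log2 fold change of 7.76, Phgdh of 2.93 and Eln of −3.18 there, beside 7.73, 3.67 and −2.65 in untreated pools.

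Some lists looked different in those pools, and no difference between the cohorts was tested. The treated libraries had longer reads and 12286104 to 19035957 counts each, against 4260059 to 6794904 in untreated pools. The part of read length and depth was not tested. Of 1089 members tested in both cohorts 10 (0.918%) were called in opposite directions, beside 1.07% of all 11143 genes. Mitosis genes were called in 10 of 43, all higher, with a median of 2.5. Their share of counts ran from 0.0505% to 0.405% in low flow and from 0.00826% to 0.183% in high flow libraries of that cohort, ranges that overlap in the liposome libraries (0.0505% and 0.39% against 0.00826% and 0.183%) but not in the IgG libraries (0.238% and 0.405% against 0.0161% and 0.0304%). Respiratory chain subunits were higher in 68 of 71 with a median of 1.53, and took 0.934% to 1.22% of counts against 0.421% to 0.62%. Immediate early and AP-1 genes were higher in 14 of 24 and lower in 2. Vcam1 and Icam1 stood at −0.08 and −0.10, and Itga5 at −0.01.

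**Figure D5:**
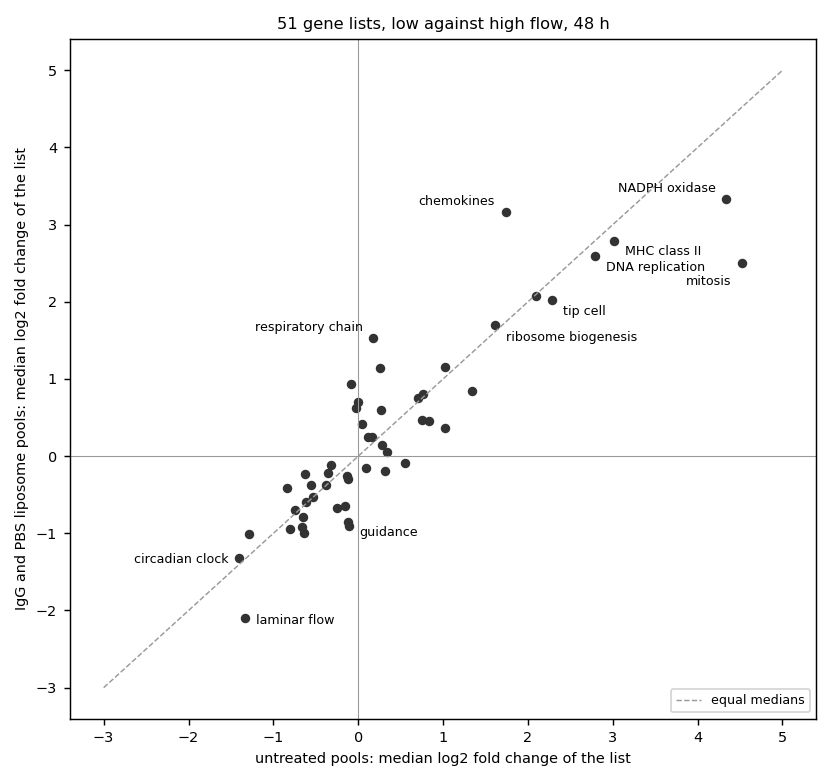
Median log2 fold change, low over high flow, of each gene list in the untreated pools (horizontal axis) and in the pools given IgG or PBS liposomes (vertical axis), 1 point a list, with the diagonal. Respiratory chain subunits lie far above it, at 0.18 and 1.53, and mitosis genes below it, at 4.52 and 2.5.

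At 7 d the contrast could be drawn in littermate controls of a conditional Rbfox2 line, with a fluorescent Rosa26-mTmG reporter, floxed Rbfox2 alleles and no Cre, on a C57 background, with 3 low flow and 2 high flow libraries. Of 12835 genes tested 10.2% changed, 5.61% higher and 4.56% lower. All 43 mitosis genes and 31 of 38 replication genes were higher, 11 of 20 laminar flow genes lower and 8 of 10 MHC class II genes higher. The low flow libraries were unlike each other, with mitosis genes at 0.0455%, 0.539% and 0.62% of counts. In the high flow libraries they took 0.0145% and 0.0151%. In the same fit, 13 of 28 amino acid genes, 7 of 42 ribosome biogenesis genes and 0 of 71 respiratory chain subunits were higher, and 0 of 20 clock genes were lower. Klk10 was at −5.75 and Angpt2 at 3.33 (adjusted p = 0.0032 and 0.00914). A test of the difference between the flow changes at 48 h and 7 d called 0 genes (0%) in edgeR, with 1077 at an unadjusted p under 0.05, and 47 in DESeq2, and a count of 0 does not show that the changes were alike. Time cannot be told apart from genotype, age, sex, read length and any library batch in that comparison.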

How the data were processed

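The authors aligned reads of the untreated 48 h pools, given in the methods as TopHat and in the submitters' processing notes as STAR 2.5.1b, to mm9, and estimated expression with RSEM 1.2.15. They deposited expected counts for each gene and library, not normalized. RSEM divides reads among genes with near-identical copies, and 6.27% to 19.3% of the values of the 6 pools were not whole. Of 21675 entries 1 had no usable name. Of 204 columns of values 22 entered the analysis, and 182, those of other samples, of the second run and of the authors' own normalization, were left aside. The plan was to sum both runs of each pool. The first run alone was used instead, a choice made after the data had been seen, because the columns of 2 runs outnumber the samples of a group and their names do not give the sample. Expected counts were rounded. Genes passing filterByExpr were scaled by TMM and compared with the quasi-likelihood test of edgeR 4.0.16 in R 4.3.3, with Benjamini-Hochberg adjustment over all genes tested and a threshold of 0.05. FPKM were computed with the deposited effective lengths. DESeq2 1.42.0, other scalings, no filter and leaving out each pool were alternatives. The main fit of each comparison was also run on simulated counts, and the alternatives were not.

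In each list, the genes named are the first 3 members and the 3 raised and 3 lowered with the largest change among those called without overlap of pools. Some of these were left out after their values were seen, among them members whose call was lost without 1 pool, and other members, named where few moved one way or to fill out a pathway, were also chosen after their values were seen. The members and lists were chosen with earlier results of these data known. Gene positions refer to NCBIM37, on which mm9 is built, and promoter sequences are those of RefSeq on GRCm38.p6. The samples were grouped by their titles. Some members are not reported here.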

Additional observations from a re-analysis of the deposited data

Results flagged for a closer look

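Each of the 5 genes below had low flow pools entirely below the high flow pools in the untreated mice, and entirely above them in the mice given IgG or PBS liposomes. In each case the change passed the threshold in both cohorts, and the difference between the cohorts was not tested. They are 5 of the 10 members called in opposite directions (0.918% of members, near the 1.07% of all genes tested in both cohorts), and the pools of these 5 did not overlap in either cohort. How many of all genes part in this way was not counted, so the 5 are no result about the members. The other 5 were Ier2, Hk1, Bag3, Col4a1 and Myh9. Among complex I subunits, Ndufb2 had a log2 fold change of −0.70 in untreated pools and 2.28 in the treated ones, Ndufb3 of −0.63 and 1.54, and Ndufb10 of −0.87 and 0.79. Diablo, a mitochondrial protein that frees caspases from their inhibitors, stood at −0.62 and 0.42. Sod2, the mitochondrial superoxide dismutase, stood at −0.79 and 0.59. Leaving out 1 untreated pool at a time lost the untreated call of Ndufb2 in 5 of 6 cases, of Ndufb3 and Diablo in 3 each, of Sod2 in 2 and of Ndufb10 in 0. In DESeq2 the untreated calls of Ndufb2 and Ndufb3 were lost and those of the other 3 were not. In the treated mice, low and high flow libraries were sequenced in different runs, so flow and run cannot be told apart there. The cohorts also differed in read length and depth, whose part was not tested.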

How the results depend on the processing

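For the untreated comparison, DESeq2, no filter on low counts, RLE or upper-quartile scaling and the sham pools in the fit kept the number of changed genes within 1.5 times of 5195. The sum of both runs and the second run alone, which had been planned, are not given here. Library totals in place of TMM left 1044 genes higher, since they lower fold changes by a median of 0.62, and an added absolute log2 fold change of at least 1 left 3448 changed with 1547 lower. Leaving out each pool in turn gave 4151 to 5411 changed, 2161 to 2744 of them higher and 1866 to 2667 lower. In the IgG and liposome pools the same gave 6325 to 7391, 3465 to 4013 and 2824 to 3447. The difference between 48 h and 7 d gave 47 genes in DESeq2 and 0 to 176 with a library left out, with 176 without low flow 48 h pool c. It gave 16 and 30 without the low flow 7 d libraries numbered 1 and 4 in the deposited columns. Those numbers are not the replicate numbers of the titles. No paired analysis was possible because the columns of the untreated pools carry letters and not replicate numbers. For the IgG and liposome pools, a fit with the replicate block called 7239 genes in place of 7418, and the numbers correlated by 0.011 and 0.465 in the 2 treatments (IgG and liposomes), while nothing in the labels ties samples of the same number to each other, so the numbers were not taken as a pairing. Among the 207 members followed for this text, values that changed sign on library totals were those of Fam38a (−0.30), Icam1 (−0.07), Cdh5 (−0.30), Cav1 (−0.23), Bmp4 (−0.30), B2m (−0.28), Hif1a (−0.29), Cox4i1 (−0.29), Csnk1d (−0.08), Arntl (−0.53), S1pr1 (−0.08) and Rbfox2 (−0.20), of which Csnk1d had been called. Over all genes tested, 194 genes called higher turned negative there, and 0 called lower turned positive. With 1 pool left out, Cdkn1a ranged from −0.32 to 0.04, above 0 without low or high flow pool a, and Arntl from −0.27 to 0.85, below 0 without high flow pool a (−0.06) or c. Beyond the scaling, the cause of these changes was not tested. With 3 pools a side and 4260059 to 6794904 counts a pool, small differences may not have been detectable.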
